A study of Mus musculus with 6 samples.

Results

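The glypicans and syndecans are the core proteins that carry most heparan sulfate at the surface of animal cells. The 10 genes, 6 glypicans (Gpc1 to Gpc6) and 4 syndecans (Sdc1 to Sdc4), were chosen by gene symbol from the 24354 genes of an expression table of mouse choroid plexus (ChP), the epithelial tissue of the brain ventricles that makes cerebrospinal fluid. The family itself was selected on these same data, because Gpc3 showed the greatest fall from E16.5 to adult among genes detected at both ages, so the values of Gpc3 are given as a description with no test. Of the 10, 7 had a mean of more than 1 FPKM (a read count divided by transcript length and by library size) over the samples and were among the 11601 genes tested. Gpc2, Gpc5 and Sdc3 were below that limit.

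The samples were 3 from adult mice (60 days by their labels) and 3 from embryos (E16.5), sequenced as ribosome-bound mRNA by translating ribosome affinity purification (TRAP). The study's methods give an age of 8 weeks for the adults and name the ChP of the lateral ventricle as the tissue of the samples. All 6 carried the same genotype, FoxJ1:cre x bacTRAP (EGFP:L10a), in which Cre driven by the Foxj1 promoter switches on a green fluorescent ribosomal protein, EGFP:L10a, that is then used to pull down ribosomes with their mRNA. No sample was treated, no input or untagged library was analysed here, and the study's methods describe pooling of 3 mice or 3 litters into a sample, whereas the series text gives 3 mice per age. The p-values therefore measure the spread between these samples, and fewer cells of a type cannot be told apart from less RNA per cell.

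Glypicans are held in the outer leaflet of the membrane by a glycosylphosphatidylinositol (GPI) lipid, whereas syndecans span the membrane and have a short cytoplasmic tail that binds scaffold proteins. Their heparan sulfate chains bind growth factors and morphogens such as FGFs, WNTs, hedgehogs and BMPs and present them to receptors. Loss of GPC3 in humans causes an overgrowth syndrome, and the protein is known as an embryonic glypican that is produced again in liver cancers.

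Gpc3 and Gpc4 lie next to each other on the X chromosome, both on the minus strand, with 107173 bases between them. In mm10, Gpc3 spans chrX:52272426-52613950 and Gpc4 spans chrX:52053021-52165252. Gpc5 (chr14:115092215-116525179) and Gpc6 (chr14:116925315-117976544) form the other pair of neighbours, 400135 bases apart on the plus strand. The other glypicans are Gpc1 (chr1:92831645-92860779, plus strand) and Gpc2 (chr5:138273655-138280005, minus strand). The syndecans lie apart from each other, Sdc1 at chr12:8771323-8793715, Sdc2 at chr15:32920723-33034935 and Sdc3 at chr4:130792537-130826319, all on the plus strand, and Sdc4 at chr2:164424247-164443887 on the minus strand.

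Promoter sequences were matched for 7 of the 10 genes, and those of Gpc3, Gpc4 and Sdc1 are shown because the samples of the ages did not overlap for these genes and they moved in different directions. Each runs 5′ to 3′ on the gene's strand, from 250 bases before to 50 bases after the transcript start, as given by RefSeq for GRCm38 (mm10). Capitals mark matches, on either strand, to GGGCGG (the GC box), CCAAT (the CCAAT box) and TATAAA (the TATA box). The windows are chrX:52613925-52614224 (minus strand) for Gpc3, chrX:52164874-52165173 (minus strand) for Gpc4 and chr12:8771146-8771445 (plus strand) for Sdc1.
Gpc3: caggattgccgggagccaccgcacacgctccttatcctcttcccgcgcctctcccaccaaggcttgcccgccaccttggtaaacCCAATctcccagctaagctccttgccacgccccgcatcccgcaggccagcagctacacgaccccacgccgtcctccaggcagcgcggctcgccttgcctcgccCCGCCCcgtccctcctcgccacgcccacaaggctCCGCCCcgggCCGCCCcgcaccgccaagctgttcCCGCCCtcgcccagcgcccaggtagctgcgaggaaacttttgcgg
Gpc4: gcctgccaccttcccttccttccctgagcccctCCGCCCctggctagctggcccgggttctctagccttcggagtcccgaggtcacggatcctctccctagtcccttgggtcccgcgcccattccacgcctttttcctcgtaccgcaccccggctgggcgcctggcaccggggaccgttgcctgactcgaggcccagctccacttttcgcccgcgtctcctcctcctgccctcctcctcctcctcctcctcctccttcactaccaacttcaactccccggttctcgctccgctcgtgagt
Sdc1: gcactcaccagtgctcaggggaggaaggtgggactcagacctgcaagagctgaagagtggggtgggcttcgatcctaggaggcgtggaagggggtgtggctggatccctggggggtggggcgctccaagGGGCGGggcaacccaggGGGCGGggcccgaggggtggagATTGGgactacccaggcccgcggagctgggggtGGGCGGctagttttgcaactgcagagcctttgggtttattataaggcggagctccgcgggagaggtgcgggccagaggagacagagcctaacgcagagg
The Gpc3 window held 4 GC boxes and 1 CCAAT box, that of Gpc4 held 1 GC box, and that of Sdc1 held 3 GC boxes and 1 CCAAT box. Among all 32851 promoters of the same length, 35.7% held a GC box, 37.4% a CCAAT box and 13.6% a TATA box. The 3 windows were rich in CpG, with 30 CpG in Gpc3, 22 in Gpc4 and 14 in Sdc1 against a median of 7 over all promoters, and with 70.7%, 66.7% and 66.3% G and C against a median of 52.7%.

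The libraries of both ages differed in ways that touch every gene below. Mir6236 took 32.7 to 51.7% of summed FPKM in the adult samples and 13.3 to 15.0% in the E16.5 samples, and 10.3 to 36.4% of the genes tested were listed at 0 in an adult library against 3.68 to 4.02% in an E16.5 library. From the smallest steps between low values, the E16.5 libraries were estimated to be 3.97 to 5.17 times as deep as the shallowest library, adult replicate 3, and the other adult libraries 1.29 and 2.87 times. Of 16 genes used in every cell, 11 were above 0 in every adult sample and 15 in every E16.5 sample, and Tbp and Ppia were among those listed at 0 in adult libraries. A 0 at either age is therefore reported as listed and not as absence. The median log2 change (adult minus E16.5) over all genes tested was −0.86, and between −1.48 and 0.01 under other scalings of the samples, so changes are also given relative to that median.

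Among the markers of the tissue, all 14 genes of the ChP epithelium list were above 0 in every adult sample, with summed levels of 40087 to 55168 FPKM against 3732 to 4180 FPKM at E16.5, where Ttr was listed at 0 in all 3 samples. Without Ttr the adult sums were 19164 to 23866 FPKM. The list went both ways, with a median log2 change of 1.07. Limma called 7 of its 14 genes higher in adults and 2 higher at E16.5, against 2.12% and 8.83% of all genes tested. In 9 every adult sample was above every E16.5 sample and in 4 below, against 7.39% and 31.0% of all genes tested. Foxj1, whose promoter drives the Cre, was lower in adults (37.9, 45.8 and 62.4 FPKM against 208, 198 and 154 FPKM, limma log2 change −1.93, SE 0.30, adjusted p = 0.0127). The 7 measured genes of the motile cilia list summed to 207 to 401 FPKM in adults and 923 to 1112 FPKM at E16.5, and 13 mesenchyme and fibroblast genes to 23.3 to 45.0 against 94.1 to 112 FPKM. Lum, Twist1, Foxc1 and Foxd1 of the mesenchyme list were listed at 0 in every adult sample. Sums overlapped for pericytes and smooth muscle (adult 4.85 to 13.2, E16.5 6.18 to 7.73 FPKM) and endothelium (0.435 to 26.8, 12.7 to 40.1 FPKM). They also overlapped for macrophages (0.0695 to 7.35, 0.584 to 8.48 FPKM), neurons (0.0975 to 3.24, 0.863 to 92.6 FPKM) and oligodendrocytes and astrocytes (4.59 to 73.0, 5.68 to 13.5 FPKM). Neural progenitor sums (211 to 254, 289 to 340 FPKM) and cell cycle sums (22.9 to 49.8, 54.1 to 102 FPKM) were lower in adults. Red blood cell genes summed to 0 to 6.49 FPKM in adults and 54.1 to 324 FPKM at E16.5. A list of 16 genes used in every cell was lower in adults too, at 2050 to 3112 FPKM against 4899 to 5400 FPKM. Its median log2 change was −1.29, against −1.17 for the tested mesenchyme and fibroblast genes. In 12 of the 16 every adult sample was below every E16.5 sample, against 31.0% of all genes tested. The part of these markers in the results below was not tested.

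**Figure D1:**
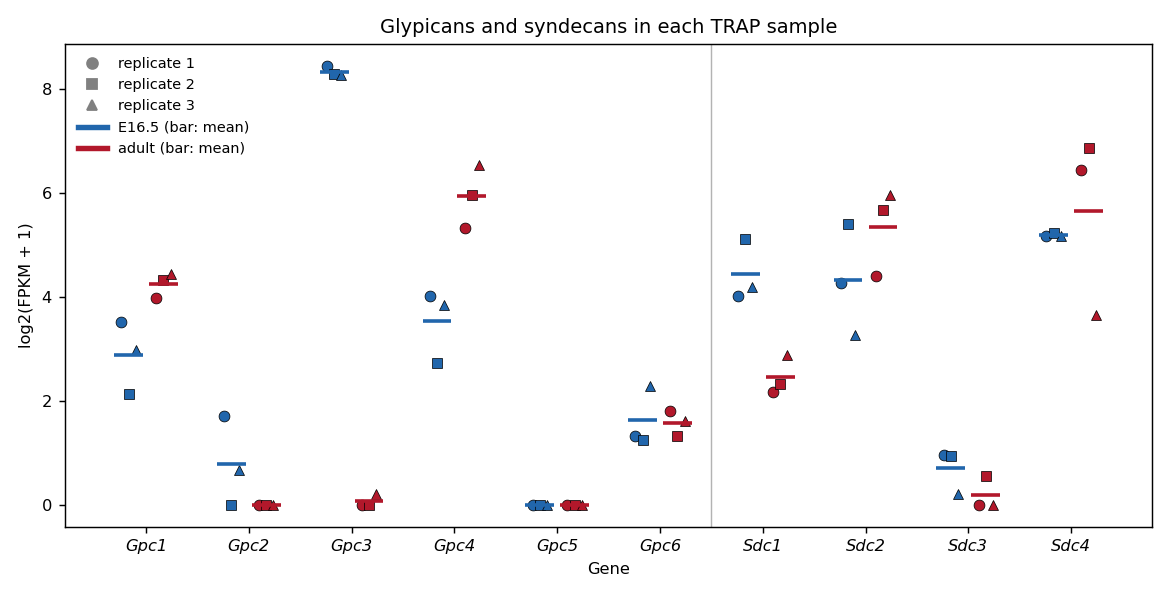
Level of each glypican and syndecan on the log2(FPKM + 1) scale (y axis) in each sample, with E16.5 in blue, adult in red, a symbol per replicate and bars at the mean. Gpc3 stood highest of the 10 genes at E16.5 and near 0 in adults, while Gpc4 and Gpc1 were higher in every adult sample and Sdc1 lower.

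Gpc3, the glypican that binds hedgehog and WNT proteins and limits body growth, was the most abundant of the 10 genes at E16.5 and close to 0 in the adult libraries. Its levels were 347, 310 and 308 FPKM in the E16.5 samples (322 ± 22.0 FPKM, SD, n = 3) and were listed at 0, 0 and 0.158 FPKM in the adult samples. All E16.5 samples were far above all adult samples, and a single adult library held any signal. The log2 change of FPKM + 1 was −8.26, the greatest fall among 10772 genes above 0 at both ages, ahead of Rn45s at −7.67. The size of that change followed the pseudocount, at −11.19 with a pseudocount of 0.1 and −13.61 with 0.01. After quantile normalization it was −7.02, and relative to the median gene it was −7.40.

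At E16.5 the Gpc3 level was above that of 98.6 to 98.8% of the genes tested, and 156 genes (1.34%) had a mean at or above it. Of these 156, 9 had an adult mean under 1 FPKM, as did 26 of the 692 genes over 100 FPKM at E16.5. The single adult value, 0.158 FPKM in replicate 3, was worth 0.984 reads at the estimated step of that library for a transcript of 2216 bases. At the same steps the E16.5 mean level would have given 2003 to 5757 reads in the adult libraries. These read numbers are no bound on the adult level, because genes used in every cell were listed at 0 there too. The genes whose pattern over the 6 samples lay nearest to Gpc3 were Fam183b, Riiad1, Enkur, Tppp3 and Anxa2, with root-mean-square distances of 0.41 to 0.70 on the log2(FPKM + 1) scale centred on each gene's mean. The first 4 of them were listed at 0 in every adult sample. No stretch of 50 bases of Gpc3 transcripts was shared with another gene, and the antisense gene A630012P03Rik within Gpc3 was listed at 0 in all 6 samples.

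Gpc4, a glypican of neural progenitors and astrocytes that also binds WNTs and FGFs, moved the other way from its neighbour on the X chromosome. It was at 39.2, 61.5 and 92.3 FPKM in the adult samples and 15.2, 5.63 and 13.4 FPKM at E16.5. The lowest adult value exceeded the highest E16.5 value, and the means (64.3 ± 26.7 against 11.4 ± 5.07 FPKM, SD, n = 3 each) differed 5.65-fold. The log2 change was 2.42 (SE 0.51, 95% interval 1.22 to 3.61, limma adjusted p = 0.0307), or 3.27 above the median gene. Within each sample, Gpc4 was above 88.0, 91.9 and 95.1% of the genes tested in adults and above 56.9, 30.0 and 54.4% at E16.5. The call was lost with all samples scaled to the same sum of FPKM (1.63, limma adjusted p = 0.0653) and with replicate number as a block (adjusted p = 0.0521). It was also lost on removal of any E16.5 sample (adjusted p = 0.0835 without E16.5 replicate 1, 0.0922 without replicate 2, 0.0818 without replicate 3). Over all genes, the 246 called higher in adults became 32, 27 and 47 on these removals. The sign of the Gpc4 change was positive in all 17 alternatives and the call held in 12.

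Gpc1, the glypican most widely made in adult tissues, stood at 14.8, 19.1 and 20.9 FPKM in adults and 10.5, 3.39 and 6.86 FPKM at E16.5. Here too the adult samples were all above the E16.5 samples (18.2 ± 3.12 against 6.92 ± 3.56 FPKM, SD, n = 3 each). Its log2 change of 1.37 (SE 0.55, 95% interval 0.10 to 2.65) did not pass the test (limma adjusted p = 0.138), and relative to the median gene it was 2.23. It passed only after quantile normalization (2.29, adjusted p = 0.0470). Of the 50-base stretches in Gpc1 transcripts, 18.0% were shared with Ankmy1 on the opposite strand, which was above 0 in 1 adult and 2 E16.5 samples, and the strand setting of the authors' counting is not given in the sources used here.

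Gpc6, which lies beside Gpc5 and is known for its role in bone growth and at synapses, was low at both ages. It measured 2.49, 1.50 and 2.04 FPKM in adults and 1.52, 1.39 and 3.90 FPKM at E16.5, with overlapping groups. The log2 change of −0.05 (SE 0.63, 95% interval −1.51 to 1.41, limma adjusted p = 0.962) was positive under median-ratio scaling (0.18), after quantile normalization (1.23), without adult replicate 2 (0.077) and without E16.5 replicate 3 (0.28).

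The remaining glypicans were below the limit for testing. Gpc2, an embryonic glypican of developing neurons, was listed at 0 in all 3 adult samples and at 2.28, 0 and 0.587 FPKM at E16.5, and 49.7% of the 50-base stretches in its transcripts also occur in the overlapping gene Gm43720. Gpc5 was listed at 0 in all 6 samples. For Gpc5, 3 reads would be worth 0.286, 0.128 and 0.368 FPKM in the adult libraries and 0.0713 to 0.0926 FPKM in the E16.5 libraries, which is no bound on its level because genes used in every cell were listed at 0 too.

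With Gpc3 removed, the summed level of the glypicans was 56.5, 82.0 and 115 FPKM in adults against 29.5, 10.4 and 24.7 FPKM at E16.5. With Gpc3 included the sums were 56.5, 82.0 and 115 FPKM in adults against 376, 320 and 332 FPKM at E16.5. Gpc3 made up 92.2, 96.8 and 92.6% of the glypican total at E16.5 and at most 0.137% in an adult sample, and Gpc4 made up 69.4, 74.9 and 80.0% of it in adults and 1.76 to 4.03% at E16.5. These shares follow from the values that chose the family and were not tested.

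Shares within a sample are the same under any scaling by a single factor per sample, which quantile normalization is not. Among the glypicans other than Gpc3, Gpc4 took 74.8 ± 5.35% in adults and 53.2 ± 1.50% at E16.5 (SD, n = 3 each), Gpc1 took 22.5 ± 4.08% and 32.0 ± 3.98%, and Gpc6 took 2.67 ± 1.51% and 11.4 ± 5.57%. Each of the 3 shares was without overlap between the ages, with an exact two-sided permutation p = 0.1, which is the smallest that 3 against 3 samples allow (adjusted p = 0.2 over 8 shares tested). The Gpc4 share was therefore higher in all 3 adult samples, and those of Gpc1 and Gpc6 lower, without reaching a threshold of 0.05. Shares of a total are tied together, so a higher Gpc4 share lowers the others and these are not 3 independent results. The mean Gpc1 level itself was higher in adults (18.2 against 6.92 FPKM).

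**Figure D2:**
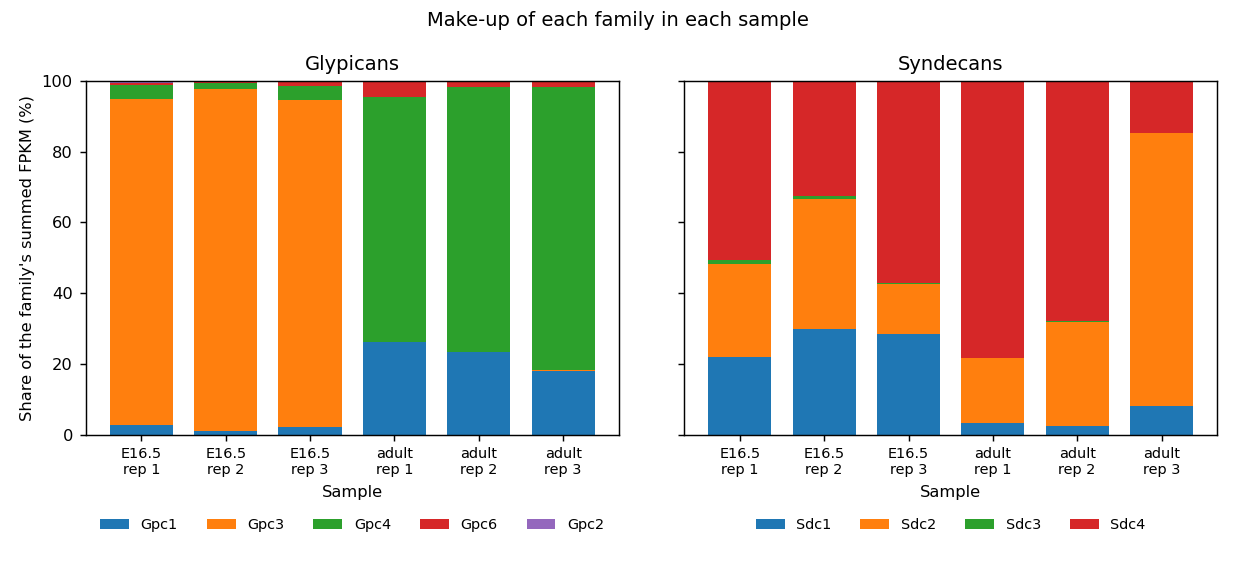
Share of each gene in the summed FPKM of its family (y axis, percent) for each sample (x axis), with glypicans on the left and syndecans on the right; Gpc5 is at 0. Gpc3 fills 92.2 to 96.8% of the glypican bars at E16.5 and Gpc4 fills 69.4 to 80.0% in adults, whereas the Sdc4 and Sdc2 parts of the syndecan bar are exchanged in adult replicate 3.

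Sdc1, the syndecan of epithelial cells that also marks plasma cells, went in the same direction as Gpc3 but less far. It was at 3.49, 3.99 and 6.41 FPKM in adults and at 15.2, 33.5 and 17.3 FPKM at E16.5. Every adult sample was below every E16.5 sample (4.63 ± 1.56 against 22.0 ± 9.98 FPKM, SD, n = 3 each). The log2 change of −1.98 (SE 0.55, 95% interval −3.27 to −0.70) narrowly missed the threshold (limma adjusted p = 0.0591), and against the median gene it was −1.13. It passed with samples scaled to the same sum of FPKM (−2.72, adjusted p = 0.0137), with the same scaling without Mir6236 (adjusted p = 0.0459), with estimated sample weights (adjusted p = 0.0450) and without adult replicate 3 (−2.20, adjusted p = 0.0338). Over all genes, the 1024 called higher at E16.5 became 3238, 1334, 1303 and 1364 in these settings. With the same sum, Sdc1 was at −1.24 relative to the median gene. Without E16.5 replicates 1, 2 and 3 in turn, its limma adjusted p was 0.144, 0.228 and 0.154.

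The Sdc1 share of the syndecan total was 3.20, 2.34 and 8.06% in adults and 21.8, 29.8 and 28.4% at E16.5. The mean share was 22.1 percentage points apart (4.53 ± 3.09 against 26.7 ± 4.24%, SD, n = 3 each), again with no overlap and at the smallest p that the design allows (exact permutation p = 0.1, adjusted p = 0.2).

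Sdc4, the broadly expressed syndecan of focal adhesions, ranked first among the 10 genes in adults by mean. Its E16.5 values of 35.2, 36.7 and 34.9 FPKM differed by little, whereas the adult values were 85.4, 116 and 11.6 FPKM, so adult replicate 3, the shallowest library, stood below all E16.5 samples and the other adult samples above them. The log2 change was 0.46 (SE 0.79, 95% interval −1.38 to 2.29, limma adjusted p = 0.716). Without adult replicate 3 it was 1.46 (adjusted p = 0.0212), without adult replicate 2 it was −0.15, and with samples scaled to the same sum of FPKM it was −0.35. The Sdc4 share of the syndecans was 78.2, 67.9 and 14.6% in adults and 50.5, 32.6 and 57.2% at E16.5 (exact permutation p = 0.8, adjusted p = 0.8).

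Sdc2, the syndecan of mesenchymal and neural cells, was at 20.3, 50.2 and 61.5 FPKM in adults and 18.3, 41.4 and 8.63 FPKM at E16.5. The groups overlapped, with a log2 change of 1.04 (SE 0.66, 95% interval −0.49 to 2.56, limma adjusted p = 0.313), positive in all 17 alternatives and called in none. Sdc3, the syndecan of neurons, was listed at 0, 0.473 and 0 FPKM in adults and at 0.935, 0.927 and 0.156 FPKM at E16.5, below the limit for testing.

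Ordered by mean level, the adult genes ran Sdc4, Gpc4, Sdc2, Gpc1, Sdc1 and Gpc6, where the ranges of Sdc4, Gpc4 and Sdc2 overlap each other and those of Gpc1, Sdc1 and Gpc6 each stand clear of the next gene down. Gpc1 overlapped Sdc2 above it. At E16.5 the order was Gpc3, Sdc4, Sdc2, Sdc1, Gpc4, Gpc1 and Gpc6, in which Gpc3 was clear of Sdc4 and Sdc1 of Gpc4, and the other neighbours overlapped. FPKM is a level per length of transcript, so these are comparisons between genes within an age.

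Leaving Gpc3 aside, limma called 1 of the 6 genes tested higher in adults (Gpc4) and 0 higher at E16.5, while at an unadjusted p under 0.05 there were 2 (Gpc1 and Gpc4) and 1 (Sdc1). Over all 11601 genes tested, 2.12% were called higher in adults and 8.83% higher at E16.5, and 5.34% and 25.9% at an unadjusted p under 0.05. By samples that do not overlap, 2 of the 6 (Gpc1 and Gpc4) had every adult sample above every E16.5 sample and 1 (Sdc1) had every adult sample below, against 7.39% and 31.0% of all genes. The family was chosen for Gpc3, so nothing is read from these counts. The median log2 change of the 6 genes was 0.75.

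**Figure D3:**
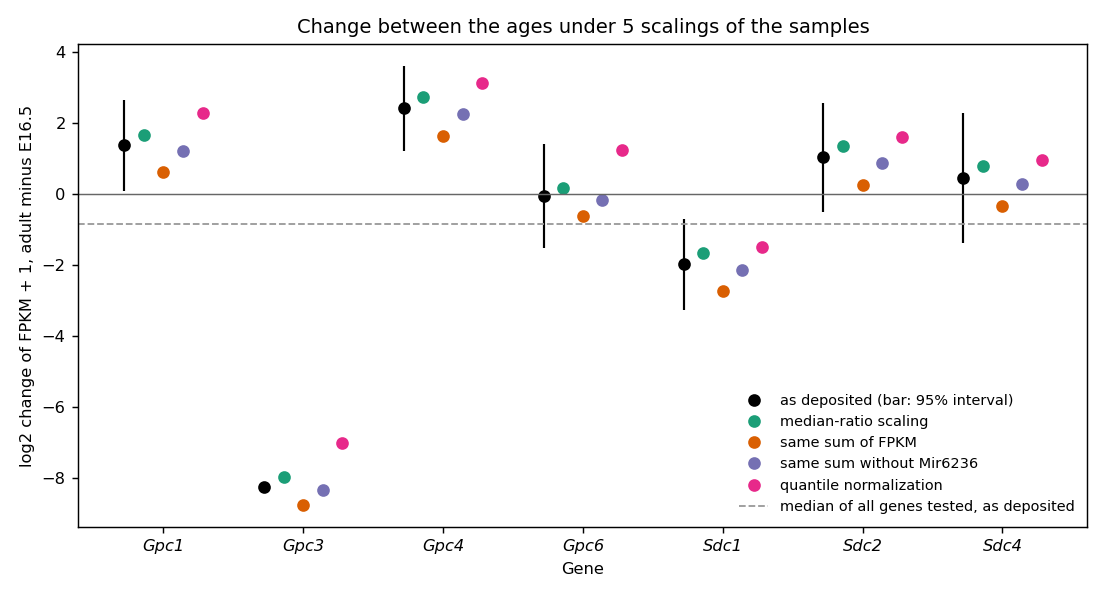
Log2 change of FPKM + 1, adult minus E16.5 (y axis), for the 7 genes tested, with the deposited scale in black (bar, 95% interval; none for Gpc3) and 4 other scalings in colour; the dashed line is the median of all genes tested. Gpc4, Gpc1 and Sdc2 stay above 0 and Gpc3 and Sdc1 below it under all 5 scalings, while Gpc6 and Sdc4 change sign.

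The genes that build, trim, anchor and work with these proteins were described from 8 lists of 125 genes, with 124 measured and 92 past the limit for testing. Among these 92, 4 were called higher in adults and 4 higher at E16.5, against the 2.12% and 8.83% of all genes, and their median log2 change was −0.26 against −0.86. The calls were Furin, Tgfbr3, Fzd4 and Lrp6 in adults, and Pcsk6, Sdcbp, Ezr and Bgn at E16.5. All 8 calls were lost with any of the E16.5 replicates 1 to 3 left out (limma adjusted p from 0.0657 to 0.141). Most calls over all genes were lost there too. Without replicates 1, 2 and 3 in turn, 246 genes higher in adults became 32, 27 and 47. The 1024 higher at E16.5 became 25, 16 and 65.

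The heparan sulfate chain is started on the core protein and then elongated by the EXT polymerases. None of the 11 tested assembly enzymes was called by limma (median log2 change −0.43), and 2, Ext1 and Extl2, named after their values were seen, were lower in adults at an unadjusted p under 0.05 (log2 changes −2.92 and −2.94, limma adjusted p = 0.0509 and 0.0621), as were 25.9% of all genes tested. The most abundant was B3gat3, which adds the last sugar of the linker, at 19.6, 24.2 and 27.9 FPKM in adults and 29.7, 13.5 and 7.81 FPKM at E16.5. Ext2, a subunit of the polymerase, was at 7.27, 20.1 and 23.5 FPKM in adults and 30.3, 14.9 and 19.8 FPKM at E16.5. Both overlapped between the ages, and 2 of the 11 genes had every adult sample below every E16.5 sample, against 31.0% of all genes.

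Among the enzymes that modify the chain, 0 of 8 tested genes were called by limma (median 0.15) and 1, Hs6st2, was higher in adults at an unadjusted p under 0.05, against 5.34% of all genes. The sulfotransferase Hs6st2, which sulfates glucosamine in the chain and lies on the X chromosome beyond Gpc4, was at 40.2, 40.6 and 72.4 FPKM in adults and 17.3, 11.1 and 21.4 FPKM at E16.5. Its samples did not overlap, and its log2 change of 1.55 (SE 0.43, 95% interval 0.56 to 2.55) missed the threshold (limma adjusted p = 0.0582). Its relative Hs6st1 overlapped, at 24.1, 9.94 and 40.3 FPKM against 19.0, 17.8 and 15.3 FPKM.

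After the proteins reach the surface, sulfatases trim the chains and proteases cut the core. Sulf1, an extracellular sulfatase, was abundant at both ages, at 307, 376 and 280 FPKM in adults and 386, 347 and 406 FPKM at E16.5, and the ages overlapped (log2 change −0.25, limma adjusted p = 0.469). Sulf2, the related sulfatase, was at 33.2, 35.7 and 8.92 FPKM in adults and 81.0, 87.0 and 87.5 FPKM at E16.5, without overlap, and missed the threshold (log2 change −1.89, SE 0.53, limma adjusted p = 0.0608). Furin, the convertase that cleaves GPC3 among many proteins, rose from 19.4, 21.2 and 10.2 FPKM at E16.5 to 39.9, 76.2 and 110 FPKM in adults (log2 change 2.04, SE 0.49, limma adjusted p = 0.0414, called in 7 of 17 alternatives). Pcsk6, a second convertase, was at 7.38, 4.45 and 2.52 FPKM at E16.5 and listed at 0, 0.194 and 0 in adults (log2 change −2.36, limma adjusted p = 0.0477, called in 5 of 16). Of the 11 genes tested in this list, 9 passed in neither direction and 1 passed in each. Over all genes, 2.12% were called higher in adults and 8.83% higher at E16.5.

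The GPI anchor that glypicans share with many other surface proteins is made by the PIG enzymes. None of the 25 tested genes was called by limma (median −0.37), and at an unadjusted p under 0.05 there were 2 higher in adults (Pigk and Pigq) and 3 higher at E16.5 (Pigc, Pigp and Pigv), named after their values were seen, against the 5.34% and 25.9% of all genes. Pigk and Pigt, subunits of the transamidase that attaches the anchor, were the most abundant, at 35.4, 31.8 and 73.6 FPKM for Pigk in adults against 20.4, 22.8 and 21.9 FPKM at E16.5. Pigt was at 29.6, 40.2 and 63.5 FPKM in adults against 34.9, 27.2 and 16.8 FPKM at E16.5.

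Among proteins that bind the syndecan tail, 2 of 8 tested genes were called, each higher at E16.5, where 8.83% of all genes were called. In 2 every adult sample was above every E16.5 sample and in 2 below, against 7.39% and 31.0% of all genes. The median log2 change of the 8 was −0.34. Sdcbp, which encodes syntenin, a scaffold on the syndecan tail that sorts syndecans into exosomes, was at 72.8, 42.1 and 31.4 FPKM in adults and 143, 121 and 126 FPKM at E16.5. Its log2 change was −1.48 (SE 0.36, limma adjusted p = 0.0431, called in 7 of 17 alternatives). Ezr, which encodes ezrin, the linker of the apical membrane to actin, was at 719, 717 and 848 FPKM in adults and 1300, 1289 and 1551 FPKM at E16.5, and its log2 change of −0.86 (SE 0.21, limma adjusted p = 0.0441, called in 7 of 17) was as large as the median change of all genes. Actn4, an actin crosslinker, overlapped between the ages (71.9, 99.3 and 118 FPKM against 86.3, 81.9 and 119 FPKM).

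Other proteoglycans moved in different directions. Tgfbr3, which encodes betaglycan, a membrane proteoglycan that presents TGF-β, was at 76.1, 69.3 and 74.9 FPKM in adults and at 31.3, 31.3 and 32.8 FPKM at E16.5 (log2 change 1.18, SE 0.29, limma adjusted p = 0.0414, called in 9 of 17 alternatives). Bgn, which encodes biglycan of the extracellular matrix, was at 67.3, 87.9 and 91.4 FPKM at E16.5 and at 13.8, 11.9 and 0.448 FPKM in adults (log2 change −3.66, SE 0.87, limma adjusted p = 0.0398, called in 9 of 17). The mesenchyme marker Pdgfra was also lower in adults, at 2.93, 2.20 and 5.91 FPKM against 18.4, 34.9 and 29.7 FPKM at E16.5 (log2 change −2.65, limma adjusted p = 0.0296). It was the only call among 9 tested genes of the mesenchyme list, where 8.83% of all genes were called higher at E16.5. The median log2 change of that list was −1.17, against −1.29 for the genes used in every cell. A link between the changes of Bgn and Pdgfra was not tested. Hspg2, the basement membrane heparan sulfate proteoglycan perlecan, and Fmod, a collagen-binding proteoglycan, did not pass the test (log2 changes −0.28 and 0.64).

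Of the 19 tested receptors that bind heparan sulfate-dependent signals or the chains themselves, 2 were called, each higher in adults. Over all genes, 2.12% were called higher in adults and 8.83% higher at E16.5. The list went both ways, with a median log2 change of −0.096. At an unadjusted limma p under 0.05, 4 were higher in adults and 5 at E16.5, against 5.34% and 25.9% of all genes. In 6 every adult sample was above every E16.5 sample and in 6 below, against 7.39% and 31.0% of all genes. Fzd4, a WNT and Norrin receptor, was at 31.7, 32.8 and 51.2 FPKM in adults and 8.65, 5.24 and 5.63 FPKM at E16.5 (log2 change 2.39, SE 0.45, limma adjusted p = 0.0221, called in 13 of 17 alternatives). Lrp6, the co-receptor with which it works, was at 94.2, 81.3 and 103 FPKM in adults and 25.6, 35.8 and 27.4 FPKM at E16.5 (log2 change 1.63, SE 0.31, limma adjusted p = 0.0221, called in 11 of 17). Lrp1, an endocytic receptor that can take up GPC3, was at 159, 138 and 139 FPKM against 48.5, 41.4 and 98.4 FPKM, without overlap, and missed the threshold (log2 change 1.30, SE 0.37, limma adjusted p = 0.0636).

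**Figure D4:**
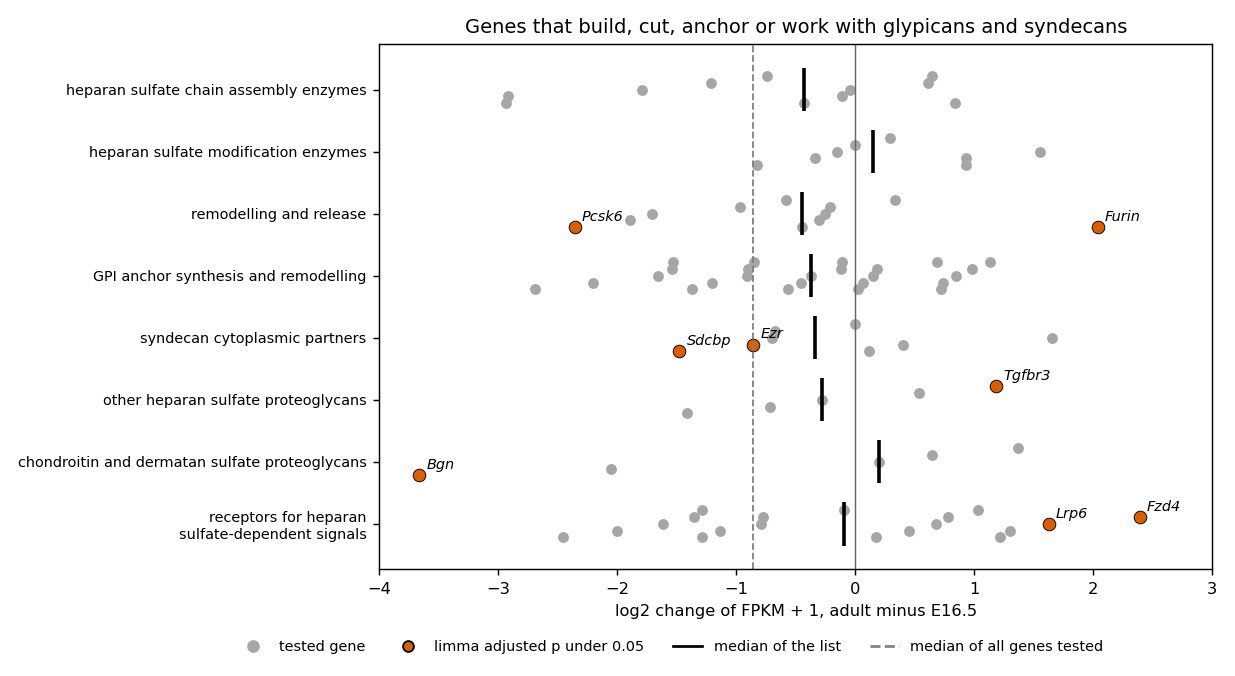
Log2 change of FPKM + 1, adult minus E16.5 (x axis), of each tested gene of the 8 lists (rows), with called genes in orange, a bar at the median of each list and a dashed line at the median of all genes tested. The 8 called genes fall in 5 of the 8 lists, 4 on each side of 0, and each list's median is above the dashed line.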

How the data were processed

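Ribosome-bound mRNA from 3 adult and 3 E16.5 samples was sequenced after SMARTer Pico preparation with ribosomal RNA depletion. The authors deposited FPKM values per gene, which per the submitters' processing notes were made with STAR 2.4.0 and Cufflinks on mm10. The 6 columns matched the 6 samples by name. Here FPKM was taken as log2(FPKM + 1), genes with a mean over 1 FPKM were tested with limma 3.58.1 in R 4.3.3 (intensity trend, Benjamini-Hochberg adjusted p under 0.05), and changes on this scale understate those of low genes. Shares within a family were compared by exact two-sided permutation tests (scipy 1.17.1). Depth is not given by FPKM, and relative depth was estimated from 2523 genes with 1 coding transcript by the step between low values, of which 62.5 to 84.4% per library fell no more than 0.1 from a whole read. Such estimates cover counting error only. Positions and transcripts came from GENCODE for mm10. The family members and the lists of related and marker genes were chosen with earlier results of these data known. Named were all members, the 2 most abundant and the called genes of each related list (at most 3 in each direction), the markers discussed and the 5 genes nearest to Gpc3. The fit was tested on simulated data. In all, 17 alternatives were tried.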

Additional observations from a re-analysis of the deposited data

How the results depend on the processing

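Gpc3, for which the family was chosen, was given no test and is left out of the counts here. Of the other 6 genes tested, 0 were called higher at E16.5. Sdc1 was called higher at E16.5 with samples scaled to the same sum of FPKM and with that scaling without Mir6236. It was also called with estimated sample weights and without adult replicate 3. Counts called higher in adults were 0 with the same sum, 2 after quantile normalization and 0 to 2 when 1 replicate was left out. Of the related genes, those higher at E16.5 numbered 4, and 18 with the same sum, 8 without Mir6236, 7 with sample weights, 2 with no filter on low values, 1 after quantile normalization, 0 under median-ratio scaling and 0 to 6 when 1 replicate was left out. Those higher in adults numbered 4, and 6 under median-ratio scaling, 6 after quantile normalization, 1 with the same sum and 1 for limma without a trend. They numbered 0 to 3 when 1 replicate was left out. Over all genes, 1024 were higher at E16.5, and 3238 with the same sum, 1334 without Mir6236 and 1303 with sample weights. They numbered 808 with no filter on low values, 660 under median-ratio scaling and 504 after quantile normalization. With adult replicates 1, 2 and 3 left out in turn they numbered 541, 1704 and 1364. With E16.5 replicates 1, 2 and 3 left out in turn they numbered 25, 16 and 65. Higher in adults were 246, and 32, 27 and 47 without the same replicates.

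The log2 change of Gpc6 turned to 0.18 (median-ratio) and 1.23 (quantile) and ran from −0.24 to 0.28 with 1 replicate left out. That of Sdc4 turned to −0.35 with the same sum and ran from −0.15 to 1.46. The difference in share (adult minus E16.5, percentage points) ran from −1.72 to 27.7 for Sdc2 and from −5.55 to 26.3 for Sdc4. In each case the cause was not tested.

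Adult and E16.5 samples share replicate numbers, but the correlations of their deviations were 0.00089, 0.044 and 0.015. No pairing by number was seen in these values, and a shared batch was not tested. With the replicate block, 0 members and 0 related genes were higher in adults and 1 related gene at E16.5, and Gpc4 had an adjusted p of 0.0521. Over all genes, 112 were higher in adults and 452 at E16.5 with that block.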

Other observations

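The protein-coding genes around Gpc3 and Gpc4 on the X chromosome, within 750 kb of the pair (a window set after seeing the data), did not share a direction. Hs6st2 was higher in every adult sample and missed the threshold (log2 change 1.55, limma adjusted p = 0.0582). On the other side of Gpc3, Ccdc160 was at 8.81, 2.37 and 0.245 FPKM in adults and 12.1, 18.9 and 7.53 FPKM at E16.5 (log2 change −1.92, limma adjusted p = 0.177). Phf6 (log2 change 0.39, adjusted p = 0.669) and Fam122b (−0.59, adjusted p = 0.740) overlapped between the ages. The purine salvage enzyme gene Hprt, at 137.9, 78.1 and 91.7 FPKM in adults and 104.8, 126.9 and 80.8 FPKM at E16.5, overlapped too (log2 change −0.04, adjusted p = 0.943). Usp26, 1700080O16Rik, Plac1 and Fam122c were listed at 0 in all 6 samples.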
